A study of Mus musculus with 4 samples.

Results

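The coding promoters occupied by both Bio-Myc and Max, with a canonical E-Box under the Bio-Myc peak, were taken from 2 ChIP-Seq peak lists of mouse embryonic stem cells (ESCs). The regions are defined by 3 features: a Bio-Myc peak that shared at least 1 bp with a Max peak, that overlapped the region within 1 kb of an annotated transcription start site (TSS) of a protein-coding gene, and that held the sequence CACGTG anywhere under it. Among 3962 peaks of Bio-Myc, 2967 also had Max, 2410 of these were at a coding promoter, and 1298 of those held an E-Box. These 1298 peaks, 32.8% of the Bio-Myc list, are called E-Box promoters here, and member peaks in the plots. The presence of a peak in each list and the sequence chose them, so their shared occupancy and their E-Box are not results. They lay within 1 kb of 1486 protein-coding genes, which is 6.65% of the 22350 such genes on the autosomes and chromosome X, and 1158 of them (89.2%) covered an annotated coding TSS.

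The Bio-Myc ChIP used 1 stable clone of E14 mouse ESCs that expressed Myc with an N-terminal Biotag from the ubiquitous EF1α promoter in cells carrying the biotin ligase BirA, so the tagged Myc was made in addition to the endogenous protein. Streptavidin beads pulled down its chromatin, and a Mock ChIP with the same beads was the control. The Max ChIP used an antibody against Max in parental wild-type E14 cells, with an IgG ChIP as the control. The labels give parental wild-type cells for the Mock ChIP and the methods give BirA-ES cells without a tagged protein. There was 1 library for each ChIP and no replicate, so the spread between cultures is unknown and no test was made. The peak lists hold no read counts, so the depth is unknown. Intervals given below are 95% intervals that cover counting error only, and peaks are not replicates.

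Myc belongs to the bHLH-zipper family of transcription factors and binds DNA as a dimer with Max. Max also pairs with Mnt, Mga and the Mxd proteins, which are known as repressors, so a Max peak alone does not name its partner. The dimers recognise the E-Box, a palindrome contacted by both partners, and the bases next to it are known to modulate the affinity. The same core is bound by other bHLH proteins, among them USF1, the lysosomal regulators TFEB and TFE3, and the circadian pair CLOCK and BMAL1. In ESCs Myc is known for its role in self-renewal and for its wide occupancy of CpG island promoters of growth genes.

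The E-Box nearest to the Bio-Myc centre is shown for the highest-scoring E-Box promoters, for Suz12, which the study examined, and for members of the gene lists described below. The core is in capitals and the flanks in lower case, on the strand of the gene and from 5′ to 3′, in mm9. The stretch of Pprc1 is shorter because it overlaps an annotated exon. Those of Ptma and Ncl are in the next set.
Ranbp1 (chr16:18248546-18248611, minus strand): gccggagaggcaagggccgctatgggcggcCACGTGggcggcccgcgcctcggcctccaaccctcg
Pprc1 (chr19:46131557-46131586, plus strand): cctttttcggagCACGTGgggtgtgggggg
5830415F09Rik (chr4:46402040-46402105, minus strand): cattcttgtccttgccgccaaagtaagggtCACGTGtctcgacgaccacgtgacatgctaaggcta
Nop58 (chr1:59742197-59742262, plus strand): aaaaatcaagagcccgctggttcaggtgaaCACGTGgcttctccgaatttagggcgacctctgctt
Psme3 (chr11:101177453-101177518, plus strand): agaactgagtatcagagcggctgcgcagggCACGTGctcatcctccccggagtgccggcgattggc
Srm (chr4:147965410-147965475, plus strand): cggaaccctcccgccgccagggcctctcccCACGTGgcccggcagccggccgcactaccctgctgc
Suz12 (chr11:79806048-79806113, plus strand): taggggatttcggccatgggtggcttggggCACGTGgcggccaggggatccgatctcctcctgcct
Eif4a1 (chr11:69486079-69486144, minus strand): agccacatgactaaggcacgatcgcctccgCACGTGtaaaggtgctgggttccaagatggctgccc
Pkm2 (chr9:59505270-59505335, plus strand): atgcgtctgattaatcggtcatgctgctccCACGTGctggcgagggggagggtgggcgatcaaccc

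Several E-Box promoters held E-Boxes close together, and these are shown because the number of E-Boxes is described below. Ptma, which codes for prothymosin alpha and had the highest Bio-Myc score, held 2. Ncl, which codes for the nucleolar protein nucleolin, held 5 in its 2073-bp peak, all in the 229 bp shown. Supv3l1, a mitochondrial RNA helicase gene, held 2. Prmt1, which codes for an arginine methyltransferase, held 4, of which 3 are shown. The pair in Nr1d1, a circadian repressor gene, and the pair in Atp6v1h, a vacuolar ATPase subunit gene, are shown for comparison.
Ptma (chr1:88421651-88421703, plus strand): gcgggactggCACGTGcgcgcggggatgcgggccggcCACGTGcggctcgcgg
Ncl (chr1:88255192-88255420, minus strand): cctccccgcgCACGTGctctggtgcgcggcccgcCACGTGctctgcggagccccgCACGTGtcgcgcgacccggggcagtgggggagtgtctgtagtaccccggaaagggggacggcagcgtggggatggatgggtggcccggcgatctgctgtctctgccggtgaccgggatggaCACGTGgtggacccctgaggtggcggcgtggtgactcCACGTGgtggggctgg
Supv3l1 (chr10:61912931-61912970, minus strand): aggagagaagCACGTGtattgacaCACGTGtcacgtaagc
Prmt1 (chr7:52241348-52241474, minus strand): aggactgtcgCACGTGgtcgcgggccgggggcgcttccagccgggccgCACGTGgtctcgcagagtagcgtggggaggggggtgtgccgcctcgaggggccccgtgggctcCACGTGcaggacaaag
Nr1d1 (chr11:98635163-98635203, minus strand): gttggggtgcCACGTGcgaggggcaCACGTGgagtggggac
Atp6v1h (chr1:5073160-5073199, plus strand): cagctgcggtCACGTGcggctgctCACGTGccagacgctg

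The score given to each peak by the peak caller is -10 times log10 of the p-value, and both lists start at 80. The 12 E-Box promoters with the highest Bio-Myc scores were those of Ptma, Ncl, Ranbp1, Pprc1, 5830415F09Rik, Nop58, Psme3, Serbp1, Bax, Prmt1, Hspd1 and Supv3l1, with scores from 1621 down to 990. At Ptma (TSS at 88423311 of chromosome 1, plus strand), the Bio-Myc peak from 88421067 to 88423691 had a score of 1621 and the Max peak a score of 2054. Its nearest E-Box was 688 bp from the Bio-Myc centre and 1620 bp upstream of the TSS, so the peak with the highest score had its E-Boxes far from its middle. At Ncl (chromosome 1, 88254796 to 88256868), the scores were 1586 for Bio-Myc and 1916 for Max, and the nearest E-Box was in an intron, 622 bp downstream of the TSS. The peak over Ranbp1, a regulator of the Ran GTPase, also covered the promoter of the neighbouring gene Trmt2a, and its scores were 1461 and 1194. Pprc1, a coactivator of mitochondrial biogenesis, had scores of 1443 and 1516 and held 5 E-Boxes. At Nop58, a component of box C/D small nucleolar ribonucleoproteins, the Max centre was 5.5 bp from the only E-Box, with scores of 1285 and 764.

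Psme3, which codes for a proteasome activator, had its nearest E-Box 12 bp from the Bio-Myc centre and 41 bp upstream of the TSS, with scores of 1273 and 995. The peak from 55143815 to 55145941 of chromosome 1 lay over the shared promoter of Hspd1 and Hspe1, the pair of mitochondrial chaperonin genes, and held 4 E-Boxes with scores of 1040 and 1076. Bax, a mediator of apoptosis, had scores of 1163 and 920, and its nearest E-Box fell in an annotated UTR. Across the 12, the distance from the Bio-Myc centre to the nearest E-Box ran from 12 bp at Psme3 to 700 bp at Serbp1, an mRNA-binding protein gene. The 12 thus did not share a fixed position of the E-Box.

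At the other end, the 5 lowest Bio-Myc scores were 80.1 at Uqcrq, a subunit of respiratory complex III, 80.2 at Shisa3, 80.4 at the small GTPase gene Rac3, and 80.5 at both Wrb and Fam195b. Their Max scores were 195, 241, 386, 156 and 430. These 5 were picked by their low Bio-Myc score, so it follows from the choice that their Max scores lay further above the limit. In all, 65 E-Box promoters had a Bio-Myc score below 85. The smallest overlap with Max was 72 bp, and 1 E-Box promoter overlapped Max by under 100 bp. In 44 E-Box promoters every E-Box lay within 100 bp of the peak edge, and 25 shared coding promoters counted as having none had one within 100 bp beyond it. At the edge of the promoter window, 50 E-Box promoters ended more than 500 bp short of the nearest coding TSS, and 12 shared peaks with an E-Box missed the window by at most 500 bp. A further 141 coding promoter peaks of Bio-Myc held an E-Box without a Max peak, and 12 of these had one within 500 bp.

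The median Bio-Myc score of the E-Box promoters was 169 (163 to 177), with quartiles of 115 and 266. That of the 1112 shared coding promoters without an E-Box was 132 (126 to 138). A score above the median of the whole list was found in 67.6% of the E-Box promoters and in 51.3% of the others, a difference of 16.3 percentage points (12.4 to 20.1). The Max scores stood in the same order, with medians of 336 (324 to 356) and 232 (223 to 243). E-Box promoters were also wider, with a median of 1144 bp (1120 to 1184) against 1036 bp (1009 to 1062), and a wider peak has more room for an E-Box. When both groups were split by an E-Box in the central 500 bp, the difference fell to 5.55 percentage points (1.52 to 9.51). Below 1000 bp of width, the median score was 132 (124 to 142) with 1 E-Box and 112 (107 to 115) with none, while in the class of widths just below 1600 bp it was 177 and 176.

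Along the Max score of all 2410 shared coding promoters, the share with an E-Box went from 33.8% (29.7 to 38.2%) in the 482 with the lowest scores to 75.9% (71.9 to 79.5%) in the 482 with the highest. In the central 500 bp it went from 22.6% (19.1 to 26.6%) to 49.2% (44.7 to 53.6%). Along the Bio-Myc score, the same shares went from 42.7% to 68.0% under whole peaks and from 34.2% (30.1 to 38.6%) to 44.0% (39.6 to 48.4%) in the central 500 bp. The presence of an E-Box thus followed the score of both ChIPs, with a wider range for Max than for Bio-Myc. Within the E-Box promoters, the Bio-Myc and Max scores had a Spearman correlation of 0.381 over 1298 peaks, which share their position and width, and among the promoters without an E-Box it was 0.282 over 1112.

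The 1298 E-Box promoters held 1838 E-Boxes. There was 1 in 894 of them (68.9%), 2 in 298, 3 in 83 and 4 or more in 23. The median Bio-Myc score was 158 (149 to 164) with 1 E-Box, 198 (174 to 221) with 2, 280 (208 to 363) with 3 and 276 (211 to 536) with 4 or more. The last pair do not differ beyond their intervals. The Max score went from 302 (282 to 319) to 402 (366 to 434), 599 (509 to 750) and 768 (568 to 1076). Peak width rose with the number as well, from a median of 1095 bp with 1 E-Box to 1694 bp with 4 or more. Within peaks of 1600 bp and wider, the median Bio-Myc score was 206 (172 to 257) with no E-Box, 228 (194 to 258) with 1 and 312 (278 to 363) with 2 or more. In that width class the step to 2 or more was larger than the intervals, and the step from none to 1 was not. The class has no upper limit, so width can still differ within it, and its part was not tested. In the 3 narrower classes the intervals with 1 and with 2 or more overlapped, for example 132 (124 to 142) and 139 (124 to 163) below 1000 bp. Ncl, Pprc1, Srm and Slc6a15 held 5 E-Boxes each. Srm codes for spermidine synthase and had a Bio-Myc score of 925, while Slc6a15, an amino acid transporter gene, had 267, so a count of 5 went with very different scores.

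**Figure D1:**
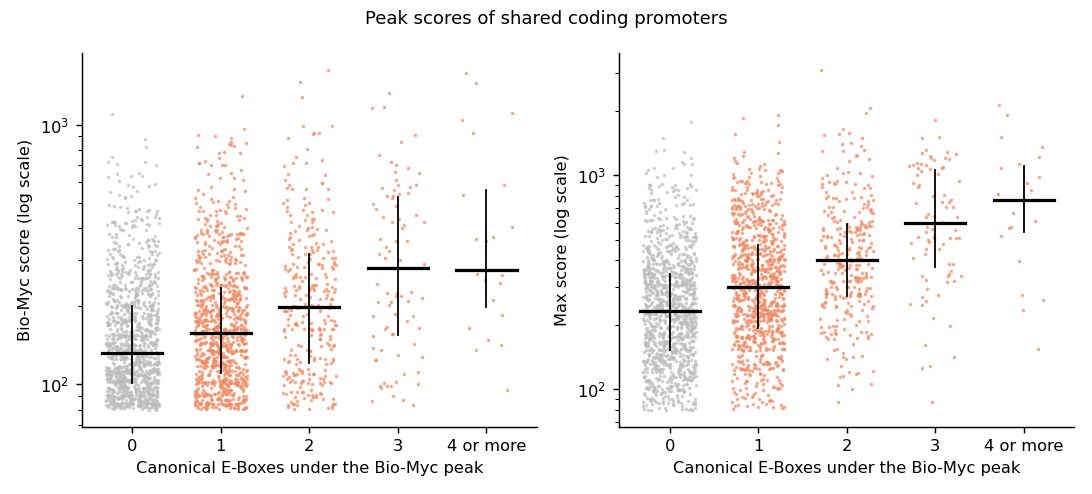
Bio-Myc score (left) and Max score (right) of the 2410 shared coding promoters on log axes, by the number of canonical E-Boxes under the Bio-Myc peak. Each point is 1 peak, thick lines are medians and thin lines span the quartiles; the Bio-Myc median is 132 with no E-Box and 276 with 4 or more, and the Max median is 232 and 768.

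Of the 540 pairs of neighbouring E-Boxes in the 404 E-Box promoters with 2 or more, 30 (5.56%, 3.92 to 7.82%) were at most 20 bp apart from start to start and 174 (32.2%, 28.4 to 36.3%) at most 100 bp. The median spacing was 206 bp. The pairs of Supv3l1, Nr1d1 and Atp6v1h printed above are among those at most 20 bp apart.

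The E-Boxes were concentrated near the middle of the peaks. The nearest one lay at a median of 148 bp (138 to 160) from the Bio-Myc centre and 135 bp (123 to 147) from the Max centre. In E-Box promoters with exactly 1 E-Box, the median was 162 bp (149 to 173). For comparison, 7 further palindromes made of the same bases around a CG were located in these peaks. Their medians were between 169 bp (154 to 186) for TGCGCA and 268 bp (232 to 298) for CTCGAG. The nearest E-Box was within 50 bp of the Bio-Myc centre in 21.3% of E-Box promoters (19.1 to 23.6%), in 18.8% (16.4 to 21.5%) of those with exactly 1, and each of the other palindromes in 10.8% to 13.8% of the peaks that held it, with TGCGCA the highest at 13.8% (10.9 to 17.3%). Counted over all copies, there were 2.22 E-Boxes per kb in the innermost 50 bp to each side and 0.539 per kb from 550 to 600 bp, a ratio of 4.12. For the mean of the other palindromes these densities were 0.298 and 0.149 per kb, a ratio of 2.0. The density of E-Boxes thus fell more steeply from the centre than the mean density of the other palindromes. The rule put an E-Box, but none of the others, in every peak, and narrow peaks count in the inner steps only. Part of the difference between the ratios can thus follow from the choice, and its size was not tested. Up to 200 bp, which every peak covers, the E-Box went from 2.22 to 1.53 per kb and the others from 0.298 to 0.296, with 0.251 from 100 to 150 bp. With exactly 1 E-Box, the intervals for the nearest one overlapped those of TGCGCA. Still, only 37.0% (34.4 to 39.6%) of the E-Box promoters had it within 100 bp of the centre.

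**Figure D2:**
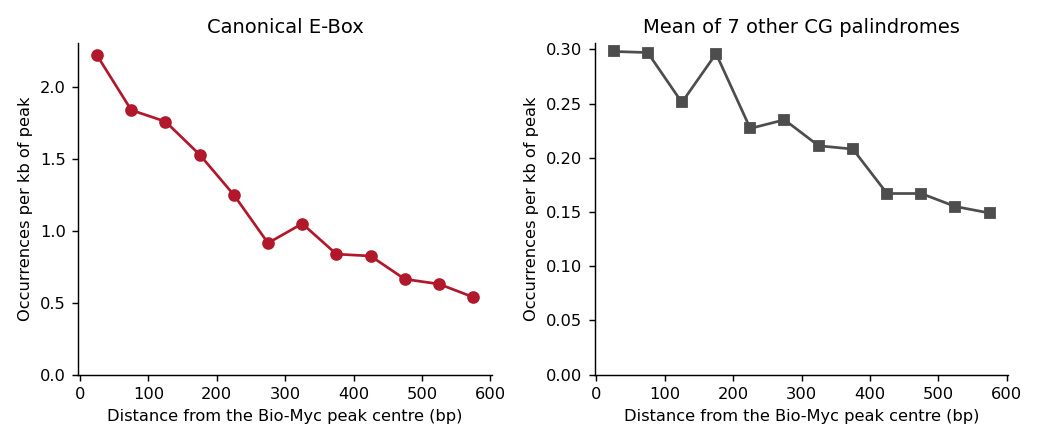
Density of the canonical E-Box (left) and mean density of 7 other CG palindromes (right) in the 1298 E-Box promoters, as copies per kb of peak sequence (y axes, from 0) in 50-bp steps from the Bio-Myc centre (x axes, bp). The E-Box falls from 2.22 to 0.539 per kb and the others from 0.298 to 0.149 per kb. Every peak reaches 200 bp from its centre, and the outermost steps hold wider peaks only.

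In 2 of 3 other groups of peaks with an E-Box it was closer to the centre. The median distance was 99.0 bp (91.5 to 107) from the Max centre in the 1501 coding promoter peaks of Max without Bio-Myc, and 99.5 bp (85.5 to 114) from the Bio-Myc centre in the 327 shared peaks away from coding promoters. These peaks were narrower, with medians of 865 bp and 954 bp over their groups, and the part of width in this was not tested. In the 141 Bio-Myc coding promoters without Max the median was 128 bp (107 to 146), which overlaps that of the E-Box promoters, and 14.9% (9.95 to 21.7%) had an E-Box within 50 bp. The centres of Bio-Myc and Max were 104 bp apart at the median (95 to 112) in E-Box promoters and 106 bp (98.5 to 112) in shared coding promoters without an E-Box, which do not differ beyond these intervals. Max covered a median of 88.0% of the Bio-Myc peak. An E-Box under the Bio-Myc peak was also under an overlapping Max peak in 1233 of the 1298. At Wrb, Cbx7, Eno1 and Azin1 the only E-Box lay outside the Max peak with the largest overlap.

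Around the TSS, 45.8% (43.5 to 48.1%) of the 1838 E-Boxes lay within 200 bp and 75.4% within 500 bp of the nearest coding TSS, at a median distance of 230 bp (212 to 248). They were split evenly, with 919 upstream and 919 downstream. By annotation, 34.4% (32.3 to 36.6%) were outside coding genes, 36.8% in introns, 17.0% (15.4 to 18.8%) in UTRs and 8.98% in coding exons. Of all 12699 E-Boxes within 1 kb of a coding TSS, 27.1% were outside coding genes, 47.8% in introns and 9.04% (8.55 to 9.55%) in UTRs. E-Boxes of E-Box promoters were therefore in UTRs more often and in introns less often than promoter E-Boxes at large. The sets were not matched for distance from the TSS, and its part was not tested. Within 200 bp of a TSS lay 842 of the 1838 and 3836 of the 12699. With only the outermost TSS of each gene, 32.3% of the 1838 were within 200 bp.

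Seen from the sequence, most promoter E-Boxes were not under such a peak. Of the 12699, 1713 were, which is 13.5% (12.9 to 14.1%). The share was 2.98% (2.08 to 4.24%) between 1000 and 800 bp upstream of the TSS, 23.3% (21.3 to 25.5%) in the 100 bp upstream, 25% (22.3 to 27.9%) in the 100 bp downstream and 5.34% (4.10 to 6.92%) between 800 and 1000 bp downstream. The E-Box itself was most frequent just upstream of the TSS, with 1522 copies in the last 100 bp and 487 per 100 bp in the outermost upstream bin. Under Max peaks without Bio-Myc, the share of promoter E-Boxes was 26.2% in the 100 bp upstream and 16.4% in the 100 bp downstream. For these the upstream side was the higher, while for the E-Box promoters both sides were alike within their intervals.

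**Figure D3:**
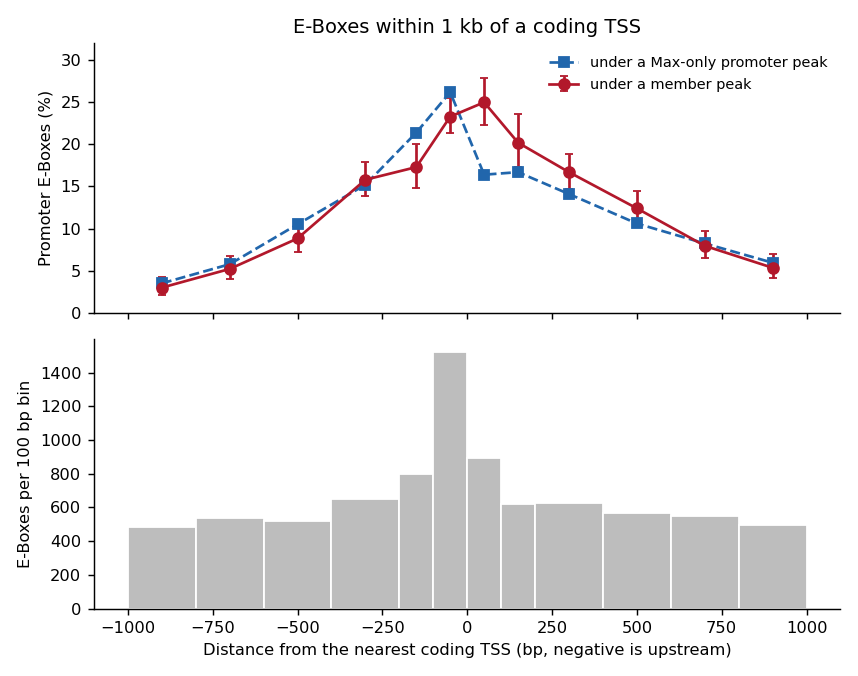
Top, percent of promoter E-Boxes under an E-Box promoter peak (red, bars are 95% Wilson intervals) and under a Max-only promoter peak (blue, no interval drawn) by distance from the nearest coding TSS in bp. Bottom, number of E-Boxes per 100 bp in the same bins. The red line runs from 2.98% far upstream to 25% just downstream of the TSS.

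The CpG content of the surroundings also divided the promoter E-Boxes. The ratio of observed to expected CpG in the 500 bp around each E-Box was computed, in which a value near 1 means no loss of CpG and CpG islands lie above 0.6. Below a ratio of 0.2, 10 of 2152 E-Boxes (0.465%, 0.253 to 0.853%) were under an E-Box promoter peak. The share was 1.95% between 0.2 and 0.4, 10.8% (9.59 to 12.1%) between 0.4 and 0.6, 33.6% (31.5 to 35.8%) between 0.6 and 0.8 and 44.6% (42.2 to 47.0%) above that. For Max-only peaks it rose from 0.743% to 31.0% between 0.6 and 0.8 and then stayed at 30.5%. The centres of E-Box promoters had a median CpG ratio of 0.822 (0.807 to 0.833) and 64.0% GC, a little below the 0.858 (0.849 to 0.867) and 65.0% of shared coding promoters without an E-Box. Shared peaks away from coding promoters had a ratio of 0.459.

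By gene, the count of E-Boxes can be set against the presence of a shared peak, which the sequence did not choose. Of all coding genes, 12.5% had a shared Bio-Myc/Max peak within 1 kb of a TSS. With 1 window for each gene, around its outermost TSS, a shared peak was found at 7.34% (6.95 to 7.75%) of the 16127 genes without an E-Box in the window. It was found at 19.6% (18.5 to 20.7%) with 1 E-Box, 31.1% (28.3 to 34%) with 2, 53.5% (46.6 to 60.2%) with 3 and 66.7% (52.1 to 78.6%) of the 45 genes with 4 or more. Each step from none to 3 was larger than the intervals. Among genes with a CpG ratio of 0.6 or more at this TSS the share went from 14.9% (14.1 to 15.7%) to 73.2% (58.1 to 84.3%). Among genes below 0.6 it went from 1.18% (0.978 to 1.43%) with none to 16.3% (8.51 to 29.0%) with 3, and the 4 genes with more had no shared peak. With all annotated TSSs, where genes with more TSSs have more sequence, the shares went from 6.92% with none to 32.9% with 3 and 32.2% with 4 or more. The order by number was thus the same up to 3 E-Boxes with either set of TSSs, and the size of the rise was larger with a single window.

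**Figure D4:**
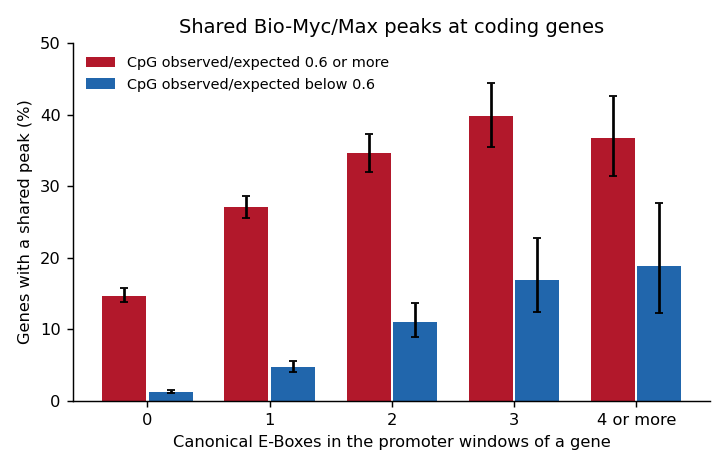
Percent of protein-coding genes with a shared Bio-Myc/Max peak within 1 kb of any annotated TSS (y axis, from 0) by the number of canonical E-Boxes in those windows, for genes with a CpG ratio at the outermost TSS of 0.6 or more (red) and below (blue). Bars are shares with 95% Wilson intervals; red goes from 14.7% with none to 39.9% with 3, blue from 1.23% to 16.9%.

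The bases next to the core differed between E-Boxes under E-Box promoter peaks and promoter E-Boxes at large. The core is a palindrome, so the base 5′ of CACGTG was read on both strands, which gives 2 flanks for each E-Box. It was A in 16.9% of the 3676 flanks in E-Box promoters and in 23.5% of the 25398 flanks of all promoter E-Boxes, and C in 36% and 30.4%. Under Max-only peaks it was A in 16.2%. Of the 2-base flanks, CG preceded the core in 7.48% of the flanks in E-Box promoters, 6.01% under Max-only peaks and 3.62% of all promoter E-Boxes. CA preceded it in 5.39%, 5.87% and 9.58%. These shares were not matched for CpG content. Of promoter E-Boxes with a surrounding CpG ratio of 0.6 or more, 38.8% were under an E-Box promoter peak, and 3.88% of those below it. The part of CpG content in these flank shares was not tested.

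As whole sites with 1 base on each side, read on the strand that comes first in the alphabet, the share of promoter E-Boxes under an E-Box promoter peak ran from 6.86% (5.35 to 8.77%) of 845 ACACGTGT to 19.2% (17.4 to 21.0%) of 1831 CCACGTGC. Among the longer sites with at least 60 copies, the shares ran from 1.59% (0.281 to 8.46%) of 63 TGCACGTGCA to 42.0% (31.1 to 53.8%) of 69 CGCACGTGGC, and in CpG-rich surroundings the intervals of this pair overlapped, with 9 copies of the first left. Since CpG content divides the E-Boxes and the flanks contribute to it, the comparison was repeated among the 3495 E-Boxes with a surrounding CpG ratio of 0.6 or more, of which 38.8% were under such a peak. There, the highest shares were those of CCACGTGG (46.5%, 41.4 to 51.7%), CCACGTGC (45.8%, 41.9 to 49.8%) and ACACGTGG (45.7%, 40.3 to 51.1%). The lowest were those of ACACGTGA (28.6%, 23.3 to 34.5%) and GCACGTGA (28.8%, 24.3 to 33.7%), while ACACGTGT, with 106 copies, had 32.1% and TCACGTGA 32.8% (28 to 37.9%). Sites ending in GTGA have a T before the core on the other strand. Over all promoters ACACGTGA and ACACGTGT had the lowest shares and ACACGTGG had 13.1% (11.5 to 14.9%), close to the 13.5% of all, while in CpG-rich surroundings ACACGTGG was among the highest and ACACGTGA, GCACGTGA and TCACGTGA were low. Within 200 bp of the TSS and in CpG-rich surroundings, ACACGTGG had 53.5% (44.9 to 61.9%) and ACACGTGA 28.3% (21.4 to 36.3%), which differ beyond their intervals. CCACGTGA, with 1 C and 1 T before the core, was between them with 40.2% (35.4 to 45.1%).

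Both kinds of site occur among the named promoters. Suz12, Cdk6, Cdk7, Ncl and Npm1 had C or G on both sides of the E-Box nearest the centre, Cbx5 had ACACGTGA, and Rbbp4, Azin1 and Bax had TCACGTGA. Among the vacuolar ATPase genes, Atp6v0d1 and Atp6v0e had TCACGTGA as well.

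Other short motifs of promoters were searched on both strands in the 1298 E-Box promoters and in the 1112 shared coding promoters without an E-Box. The non-canonical E-Box CACGCG was in 57.5% (54.8 to 60.1%) of the E-Box promoters and 62.8% (59.9 to 65.6%) of the others under whole peaks, and in 41.8% and 48.9% of their central 500 bp, where 18.3% of the 500-bp windows around the outermost TSS of all coding genes held it. The NRF1 motif GCGCATGC was in 5.86% (4.70 to 7.27%) and 10.8% (9.10 to 12.8%) of the centres, against 3.89% of all promoters. It holds CGCATG, the reverse complement of CATGCG, so each match is also one of CATGCG, which was in 17.3% and 20.4% of the centres, a difference of -3.08 points (-6.23 to 0.0473). The YY1 motif AAGATGGCG was in 4.62% (3.61 to 5.90%) and 7.64% (6.22 to 9.36%) of the centres and TCTCGCGA in 2.62% and 4.77%, against 2.87% and 1.64% of all promoters. The ETS motif CCGGAA was in 37.4% and 44.2% of the centres, with a difference of -6.79 percentage points (-10.7 to -2.86), and in 59.4% and 62.6% of whole peaks. In the centres CACGCG, GCGCATGC, AAGATGGCG, TCTCGCGA and CCGGAA were thus less frequent in E-Box promoters than in the others. They were more frequent in both groups than over all promoters, whose windows were centred on the TSS and not on a peak. Each of these motifs holds a CG, and the groups were not matched for CpG content, so its part was not tested. The canonical E-Box itself was in the central 500 bp of 914 E-Box promoters.

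For the remaining motifs the difference was within its interval in the centres or changed with the window. The GC box GGGCGG was in 75.7% of the centres of E-Box promoters and 78.7% of the others, with a difference of -2.96 points (-6.29 to 0.414). The CCAAT box was in 40.2% and 39.4%, although under whole peaks CCAAT was in 71.6% and 65.7%. Over all promoters GGGCGG was in 52.6% and CCAAT in 48.0% of the 500-bp windows. CCAAT was thus less frequent in the centres of both groups than over all promoters. The windows of all promoters were centred on the TSS and those of both groups on the peak. The part of position and of GC content in this was not tested. CATGTG was higher in E-Box promoters under whole peaks (38.3% and 33.7%) and lower in the centres (16.7% and 18.3%), so its direction depended on the width. Over all promoters CATGTG was in 17.2%. CTCGTG was in 39.5% and 38.4% of whole peaks and in 21.6% and 26% of the centres, where the difference was -4.34 points (-7.76 to -0.934). The CRE TGACGTCA was in 3.31% and 4.86% of the centres. Divergent pairs of coding TSSs at most 1 kb apart lay at 12.9% (11.2 to 14.8%) of E-Box promoters and 17.5% (15.4 to 19.9%) of the shared promoters without an E-Box, a difference of -4.67 percentage points (-7.57 to -1.80).

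The genes were grouped by 14 lists, in which a gene counted when an E-Box promoter peak lay within 1 kb of one of its TSSs. A peak over neighbouring genes of a list counted for each of them, and the intervals treat such genes as separate. The lists were chosen with results of these data known, so their counts are a description, to be read beside the 6.65% of all coding genes. Of 290 listed symbols 289 were matched to the annotation.

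Ribosome biogenesis, translation and protein folding come first. Of 30 nucleolar genes of ribosome biogenesis, 20 (66.7%, 48.8 to 80.8%) had an E-Box promoter peak, and 9 more had a shared peak without an E-Box. The median Bio-Myc score of the 20 was 394, against 169 over all E-Box promoters. Beside Ncl and Nop58 they included Npm1, the gene of nucleophosmin (score 614, Max 1256, 3 E-Boxes), and Tsr1, a factor of 40S maturation (572 and 709). Of 24 translation factors, 14 (58.3%) had one, led by Eif4a1, the RNA helicase of the cap-binding complex (777 and 1123), and the Eif3 subunit genes Eif3a (625 and 543) and Eif3b (508 and 489), with a median of 348. Of 12 chaperonin and mitochondrial chaperone genes, 8 (66.7%, 39.1 to 86.2%) had one, among them Hspa9 (504 and 1905) and the CCT subunit gene Cct3 (404 and 1049).

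Metabolic genes followed. Of 28 genes of nucleotide and one-carbon synthesis, 16 (57.1%, 39.1 to 73.5%) had an E-Box promoter peak, with a median score of 301. Paics and Ppat, which code for enzymes of purine synthesis, are transcribed divergently, and 1 peak from 77379433 to 77381505 of chromosome 5 with 3 E-Boxes and scores of 857 and 903 lay over both. Shmt1 had 642 and 806, and the peak of Nme1 (511 and 603) was shared with its neighbour Nme2. Of 9 matched polyamine genes, 4 had one, namely Srm, Odc1 (the ornithine decarboxylase gene, 258 and 556), Azin1 and Amd1. Of 19 glycolytic genes, 8 (42.1%) had one, including Pkm2 (418 and 824), Ldha (346 and 914, 2 E-Boxes), the lactate transporter gene Slc16a1 (317 and 513) and Eno1 (311 and 110). Of 21 genes of mitochondrial import and biogenesis, 7 had one, with the highest Bio-Myc scores at Timm9 (750 and 780) and Tomm20 (370 and 1400). Tomm20 is on chromosome 8, where the Max scores were higher, as described below.

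Of 28 cell cycle and replication genes, 6 (21.4%, 10.2 to 39.5%) had an E-Box promoter peak, while 12 more had a shared peak without an E-Box. The 6 were Cdk6 (score 520, Max 1497, 3 E-Boxes), Cdk7 (426 and 501), Ccne2 (277 and 1580), Cdk1 (169 and 201), Cdk4 (136 and 768, 4 E-Boxes) and Orc1. Of the 18 with a shared peak, the 6 are 33.3% (16.3 to 56.3%), and of the 29 such nucleolar genes the 20 are 69.0% (50.8 to 82.7%). Over all coding genes with a shared peak this share was 53.3%, which lies within both intervals. Of 20 Polycomb, HP1 and histone modifier genes taken from the study, 7 had an E-Box promoter peak and 5 a shared peak without one. The HP1 genes had the highest scores, with 804 and 758 at Cbx5 and 563 and 719 at Cbx3. Their peaks also lay over the neighbouring genes Hnrnpa1 and Hnrnpa2b1, and the only E-Box of the Cbx3 peak was 1256 bp from its centre. Suz12, a core subunit of Polycomb repressive complex PRC2, had 321 and 721, with its E-Box 527 bp upstream of the TSS at 79806608 of chromosome 11. Rbbp4, a histone chaperone shared by several complexes, had 206 and 326, Cbx7, a subunit of PRC1, 132 and 160, the methyltransferase gene Mll3 123 and 428, and Wdr5 119 and 256. The genes that the study names were counted as a further set. Of these 40, 13 had an E-Box promoter peak. That set and the Polycomb list include genes that the study presents as bound in the same ChIPs. Suz12 and Ezh2 were also its positive controls. Both counts therefore follow in part from the choice, and the share over all coding genes is no baseline for them.

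Of 20 pluripotency genes, 4 had an E-Box promoter peak and none had a shared peak without an E-Box. These were Utf1 (369 and 693), Lin28a (292 and 382), Stat3 (167 and 558, 3 E-Boxes) and Esrrb (95.4 and 236, 4 E-Boxes), and the E-Box nearest the centre was over 1000 bp downstream of the TSS in Utf1, Lin28a and Esrrb. Of 13 genes of the Myc network, 4 had one, with scores of 226 and 221 at Mxd3, 222 and 473 at Mlxip, 204 and 1554 at Mnt and 171 and 384 at Max itself. The Mnt promoter ranked 12 among the Max scores and 500 among the Bio-Myc scores of the E-Box promoters, and it lies on chromosome 11, where the median Max score was 502 against 336 over all.

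The 3 lists known for other E-Box factors had median Bio-Myc scores below the 169 of all E-Box promoters, over 6, 5 and 2 genes. Of 17 circadian genes, 13 had an E-Box within 1 kb of a TSS and 6 an E-Box promoter peak, with a median Bio-Myc score of 118. The Max scores were 2137 at Ciart (annotated as Gm129), 1213 at Nr1d1, 942 at Nr1d2 and 821 at Cry1. Their Bio-Myc scores were 276, 357, 112 and 124. These circadian genes were named for their Bio-Myc scores, the highest of the list. Each of their Max scores was above the median of 336 over all E-Box promoters. The Max scores of Dbp and Tef, which also had such a peak, are not given, so the whole list is not described by Max score. Of the named circadian genes, Nr1d1 is on chromosome 11. Of 33 lysosomal and vacuolar ATPase genes, 25 had a promoter E-Box and 5 (15.2%, 6.65 to 30.9%) an E-Box promoter peak, with a median of 89.0 and the highest score at Atp6v1a (356 and 271). Of 15 germline genes, 11 had a promoter E-Box and 2 had a peak, Sycp1 (107 and 909) and Sycp3 (83.2 and 575), whose products belong to the synaptonemal complex. With a Bio-Myc score of at least 110, 2 lysosomal and none of the germline genes were left. Of the genes with a promoter E-Box, 16.5% (15.7 to 17.3%) over all coding genes had an E-Box promoter peak, and the 5 of 25 lysosomal genes (8.86 to 39.1%) and 2 of 11 germline genes (5.14 to 47.7%) did not differ from this beyond their intervals. The share was 46.2% (23.2 to 70.9%) in the circadian list and 76.9% (57.9 to 89%) in the nucleolar list.

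**Figure D5:**
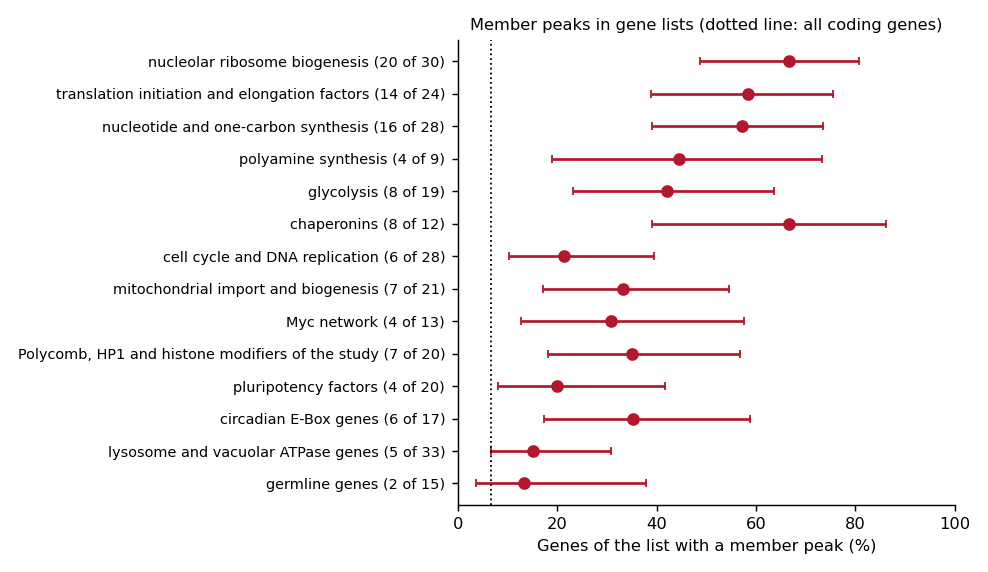
Percent of the genes of each list that had an E-Box promoter peak within 1 kb of a TSS (x axis), with 95% Wilson intervals; counts are given beside the names and the dotted line marks the 6.65% of all coding genes. The nucleolar and chaperonin lists lie highest, at 66.7%, and the germline list lowest, at 13.3%, with an interval that includes the line. The Polycomb list was taken from genes named by the study, so its share follows in part from that choice.

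By chromosome, E-Box promoters numbered from 10 on chromosome X to 142 on chromosome 11, and made up 46.3% (chromosome 12) to 62.5% (chromosome X) of the shared coding promoters. Per 100 coding genes there were 8.59 on chromosome 11 and 1.07 on chromosome X. The median Max score of the E-Box promoters was 675 on chromosome 8 and 502 on chromosome 11, and between 169 and 369 on the others, while the median Bio-Myc score on chromosomes 8 and 11 was 154 and 181, within the 144 to 199 of the others. The Max list also held 1357 peaks on chromosome 8 beside 214 of Bio-Myc. Without chromosome 8 the median Bio-Myc score of the E-Box promoters was 171, and without both chromosomes it was 169. The results on the Max score include both chromosomes and were not recomputed without them. Max scores of single genes there are likewise not on a par with the others. Among these are Psme3, Suz12, Npm1, Tsr1, Eif4a1, Shmt1, Nme1 and Stat3 on chromosome 11 and Tomm20 on chromosome 8.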

How the data were processed

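Chromatin of mouse ESCs was measured by ChIP-Seq in 4 libraries, of which the peak lists of the Bio-Myc and the Max ChIP were used. The authors sequenced on an Illumina HiScanSQ, mapped unique reads with at most 2 mismatches to mm9 by Bowtie 0.12.7, kept single copies of redundant reads and ran MACS 1.4.1 for peaks against the Mock or IgG library. CASAVA 1.8 is also in the submitters' processing notes. The deposited score of each peak is -10 times the log10 of its p-value, at a limit of 1e-08 (score 80), so the number of peaks depends on depth, which is unknown. Scores are not comparable between libraries. Unique mapping leaves out repeats.

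Peaks on autosomes and chromosome X were set beside the mm9 sequence and GENCODE M1, with all annotated TSSs of protein-coding genes. Coordinates are 1-based, and a peak centre is its midpoint, since the lists hold no summits. Shares have Wilson intervals, differences Newcombe's intervals and medians exact order-statistic intervals. Older gene symbols were matched through RefSeq synonyms. The members, lists and measures were chosen with earlier results of these data known. Named were the 12 highest and 5 lowest Bio-Myc scores, the 5 with the most E-Boxes (one of them is not reported here), genes named by the study, and at most 4 of the highest-scoring genes of each list. Orc1 was named after its value was seen. Scores in brackets are Bio-Myc, then Max. Python 3.11.15 with numpy 2.4.6, pandas 2.3.3 and SciPy 1.17.1 was used, and on simulated data 9 of 9 steps returned the known answers.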

Additional observations from a re-analysis of the deposited data

How the results depend on the processing

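The number of E-Box promoters stayed within 1.5 times of 1298 under the other overlap rules, promoter windows and TSS sets, and fell to 750 with a Bio-Myc score of at least 150 and to 468 with an E-Box in the central 200 bp. With a Bio-Myc score of at least 110, the median score was 203, the difference in the share above the list median 12.3 percentage points and the share of promoter E-Boxes under such a peak 10.7%. The share was 18.4% with TSS windows of 500 bp and 38.8% in CpG-rich surroundings. With an E-Box in the central 500 bp, the median score was 162 and the difference 5.55 points. The nearest E-Box was 135 bp from the Max centre and 162 bp from the Bio-Myc centre with exactly 1 E-Box. With the outermost TSS, 32.3% of E-Boxes were within 200 bp. In CpG-rich surroundings, 15.0% of the flanks in E-Box promoters were A. The 23.5% of all promoter E-Boxes was not limited to such surroundings, so these values are not compared. In the central 500 bp, the differences between E-Box promoters and the others turned to -1.63 points for CATGTG, -3.08 for CATGCG, -4.34 for CTCGTG and -2.96 for GGGCGG, and the cause was not tested. The CpG-rich subset, the single TSS window by number of E-Boxes and leaving out chromosomes 8 and 11 were chosen after seeing the data. Of the 115 recomputed values, 89 stayed within their limits. No paired analysis was possible because each ChIP has 1 library. With depth unknown, a promoter E-Box without a peak may be bound below the limit of the lists.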
